A study of Mus musculus with 18 samples.

Results

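The enzymes that add or remove methyl and acetyl marks on histones and DNA were followed across RNA-seq of 2 mouse mammary tumour cell lines, 168FARN and 67NR. Members were the genes present in both deposited count tables whose symbols belong to the lysine demethylase (Kdm), histone deacetylase (Hdac), sirtuin (Sirt), lysine acetyltransferase (Kat), arginine methyltransferase (Prmt), DNA methyltransferase (Dnmt) and Tet families, with *Ep300* and *Crebbp*. The rule used names alone, took Kdm symbols with no final letter or with A to C, and found 58 members among 24333 genes. *Kdm4d* was therefore not a member and is counted below among related enzymes. All 58 were placed on the mm9 genome, 51 by symbol and 7 through an older symbol. *Prmt8* had 0 reads in all 18 libraries.

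Both lines are described as non-metastatic models of triple-negative breast cancer. Each was studied as WT cells, as *Kmt2c* KO cells and as *Kmt2d* KO cells, with 3 replicates of each and 18 libraries in all. *Kmt2c* and *Kmt2d* encode histone H3 lysine 4 methyltransferases, and the knockouts were made by transient Cas9 and guide RNAs against the first exon of each gene, then sorted and kept as pools, not clones. The 168FARN WT columns of the count table are named for a control guide RNA, and those of 67NR for WT alone. The labels name no added agent for any of these groups. Replicates were collections of the same cells separated by a passage, so p-values measure the spread between collections. The paper checked the pools by sequencing the targeted regions and by immunoblot, which showed reduced protein. Its share of mutant reads was lowest for *Kmt2c* in 67NR, so the pools were not edited equally. Reads over the targeted genes do not check the knockouts, since a transcript with a small deletion near its start can still be counted. *Kmt2d* was at 165, 163 and 106 CPM in 168FARN WT and 299.5, 264 and 138 CPM in 168FARN *Kmt2d* KO libraries.

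Of 10 epithelial markers, 67NR WT libraries had all 10 over 1 CPM, whereas 168FARN libraries of each genotype had 1, *Krt8*. The summed epithelial markers lay at 3684.4 to 5638.6 CPM in 67NR WT and at 98.89 to 397.8 CPM in 168FARN of any genotype, and the defining markers *Epcam*, *Cldn3*, *Cldn4* and *Cldn7* were at 0 in 168FARN. *Ptprc*, a marker of all leukocytes, stayed under 0.1 CPM on average in every group. Of 5 immune markers, *Adgre1* and *Cd3e* were also under 0.1 CPM, and *Cd79a* reached at most 0.6631 CPM. *Cd68* averaged 27.19 to 61.65 CPM over the groups. The 5 summed to 2.898 to 5.584 CPM in 168FARN replicate 3 and to 73.16 to 94.12 CPM in 168FARN replicates 1 and 2. Between 14359760 and 43427382 reads per library were counted in 168FARN and between 40951775 and 79251530 in 67NR. In the library of 67NR *Kmt2d* KO replicate 3, 28.81% of the counts fell on the ribosomal precursor *Rn45s*, against 0.4595% to 4.971% in the others. In every group, the 12 proliferation markers summed to 3231.3 to 5365.2 CPM in replicate 3 and to 829.6 to 1341.3 CPM in replicates 1 and 2.

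Histone demethylases of the Kdm1 and Kdm5 families take methyl groups off H3 lysine 4, the residue that KMT2C and KMT2D methylate, whereas *Kdm6a* and *Kdm6b* act on H3 lysine 27. Acetyltransferases such as *Ep300* and *Crebbp* acetylate histones at active enhancers, and deacetylases and sirtuins remove acetyl groups. Dnmt enzymes methylate cytosine in CpG dinucleotides, and Tet enzymes oxidize that methyl group. Levels are given below as CPM, reads over a gene relative to the library's counted reads, scaled over all 18 libraries, in the order of replicates 1, 2 and 3. Fold changes come from edgeR's quasi-likelihood test, and calls needed both an adjusted p below 0.1 and a log2 fold change beyond 0.6 in either direction. In bulk RNA, fewer cells with a transcript cannot be told apart from less transcript per cell.

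The members were a mixed group in level. Per kilobase of longest coding transcript, the arginine methyltransferase *Prmt1* was highest in 168FARN WT with a mean of 112.0 CPM per kb, followed by the class I deacetylase *Hdac2* with 76.34. In 67NR WT the order was turned, with 114.5 CPM per kb for *Hdac2* and 103.8 for *Prmt1*. At the low end, *Tet1* averaged 0.00892 CPM per kb in 168FARN WT and 0.151 in 67NR WT. *Hdac9* averaged 1.07 and 0.0131 CPM per kb in the same groups, so each was near 0 in 1 of the lines.

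**Figure D1:**
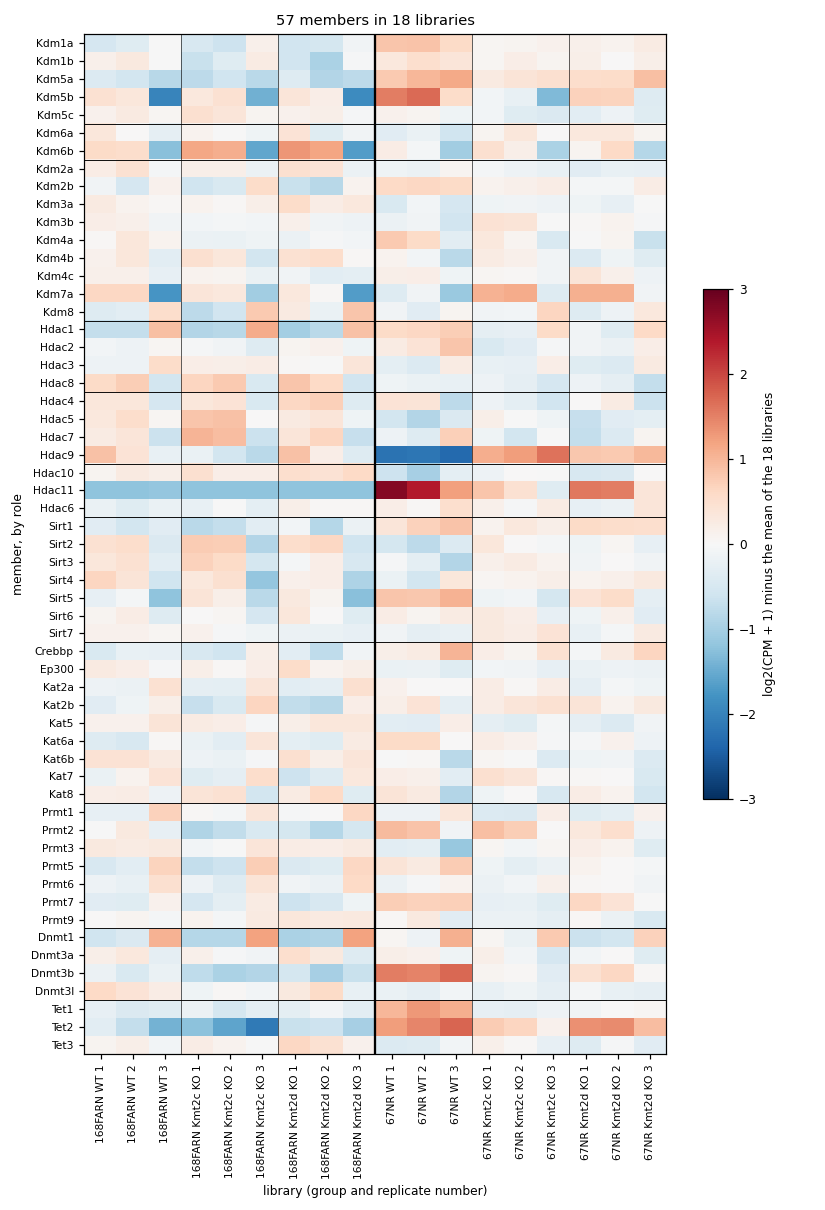
Heat map of the 57 members with reads, in rows by role, and the 18 libraries in columns. Colour is log2(CPM + 1) minus the mean of the 18 libraries; black lines separate roles and groups, and the thick line separates 168FARN (left) from 67NR (right). *Hdac11* has colour above the mean in 67NR only, and *Kdm5b*, *Kdm6b* and *Kdm7a* are lower in replicate 3 of each 168FARN group.

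In 67NR cells, 5 members passed the test in both knockouts. Both were compared with the same WT libraries, so the comparisons are not independent. In *Kmt2c* KO 17.9% of all genes were called higher and 17.4% lower, and in *Kmt2d* KO 13.9% and 11.6%. The share of all genes called in both was not computed. *Hdac9*, *Kdm7a* and *Kdm6a* rose, and *Tet1* and *Dnmt3b* fell. *Hdac9*, a class IIa deacetylase (chromosome 12, 34732451 to 35213754 in mm9), was at 0.0945, 0.117 and 0 CPM in WT libraries, at 9.82, 11.1 and 14.6 CPM across *Kmt2c* KO libraries and at 7.84, 7.69 and 8.99 CPM in *Kmt2d* KO libraries. WT held 16 reads over 3 libraries against 2097 and 1201 in the knockouts, so pooled counts differed 139-fold (95% exact interval 85.6 to 244.1) and 99.3-fold (60.9 to 174.2), intervals that cover counting error only. The groups did not overlap, and the tests gave log2 fold change 7.28 ± 0.55 (SE), adjusted p = 1.79e-05 in *Kmt2c* KO and log2 fold change 6.75 ± 0.55 (SE), adjusted p = 4.44e-05 in *Kmt2d* KO.

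*Tet1*, which starts the oxidation of methylated cytosine (chromosome 10, 62267318 to 62361866), was at 1.88, 2.56 and 2.07 CPM in 67NR WT. In the knockouts it was at 0.209, 0.183 and 0.282 CPM across *Kmt2c* KO libraries and at 0.332, 0.442 and 0.502 CPM in *Kmt2d* KO. Each knockout library was below each WT library. *Tet1* fell in *Kmt2c* KO (log2 fold change -3.19 ± 0.40 (SE), adjusted p = 3.11e-04) and in *Kmt2d* KO (log2 fold change -2.27 ± 0.38 (SE), adjusted p = 0.00275). *Dnmt3b*, a de novo DNA methyltransferase (chromosome 2, 153475186 to 153513466), showed the same order with 5.21, 4.98 and 6.06 CPM in WT, 1.25, 1.21 and 0.704 CPM across *Kmt2c* KO libraries and 1.92, 2.28 and 1.21 CPM in *Kmt2d* KO. Its change was log2 fold change -2.27 ± 0.35 (SE), adjusted p = 0.00105, in *Kmt2c* KO and log2 fold change -1.50 ± 0.34 (SE), adjusted p = 0.0123, in *Kmt2d* KO. *Hdac9*, *Tet1* and *Dnmt3b* passed in all 6 fits that left out 1 library in each of these 2 comparisons.

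*Kdm6a*, the H3 lysine 27 demethylase that shares complexes with KMT2C and KMT2D (chromosome X, 17739701 to 17857062), was at 44.1, 48.8 and 37 CPM in 67NR WT, 59.2, 71.9 and 56.6 CPM across *Kmt2c* KO libraries and 70.7, 70 and 59.9 CPM in *Kmt2d* KO libraries. The WT libraries were the lowest, and the rise was small (log2 fold change 0.61 ± 0.16 (SE), adjusted p = 0.018, in *Kmt2c* KO and log2 fold change 0.70 ± 0.16 (SE), adjusted p = 0.0143, in *Kmt2d* KO). The *Kmt2c* KO call was lost without 67NR WT replicate 3 (log2 fold change 0.51) or *Kmt2c* KO replicate 2 (0.50), where the change fell under the fold threshold. *Kdm7a*, a demethylase of H3 lysines 9 and 27 (chromosome 6, 39086622 to 39156788), was at 46.5, 56.1 and 27.8 CPM in WT, 127, 132 and 46.3 CPM across *Kmt2c* KO libraries and 129, 129 and 56.3 CPM in *Kmt2d* KO. Replicate 3 was the lowest library in each group. The changes were log2 fold change 1.32 ± 0.46 (SE), adjusted p = 0.0548, and log2 fold change 1.35 ± 0.46 (SE), adjusted p = 0.0664. These calls were lost in 4 of 6 fits each, with adjusted p of 0.118 and 0.143 without WT replicate 1, 0.122 and 0.137 without WT replicate 3, 0.159 and 0.181 without knockout replicate 1 and 0.165 and 0.178 without knockout replicate 2. With the replicate number as a block they were log2 fold change 1.23 ± 0.14 (SE), adjusted p = 3.44e-05, and log2 fold change 1.30 ± 0.14 (SE), adjusted p = 3.95e-05.

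**Figure D2:**
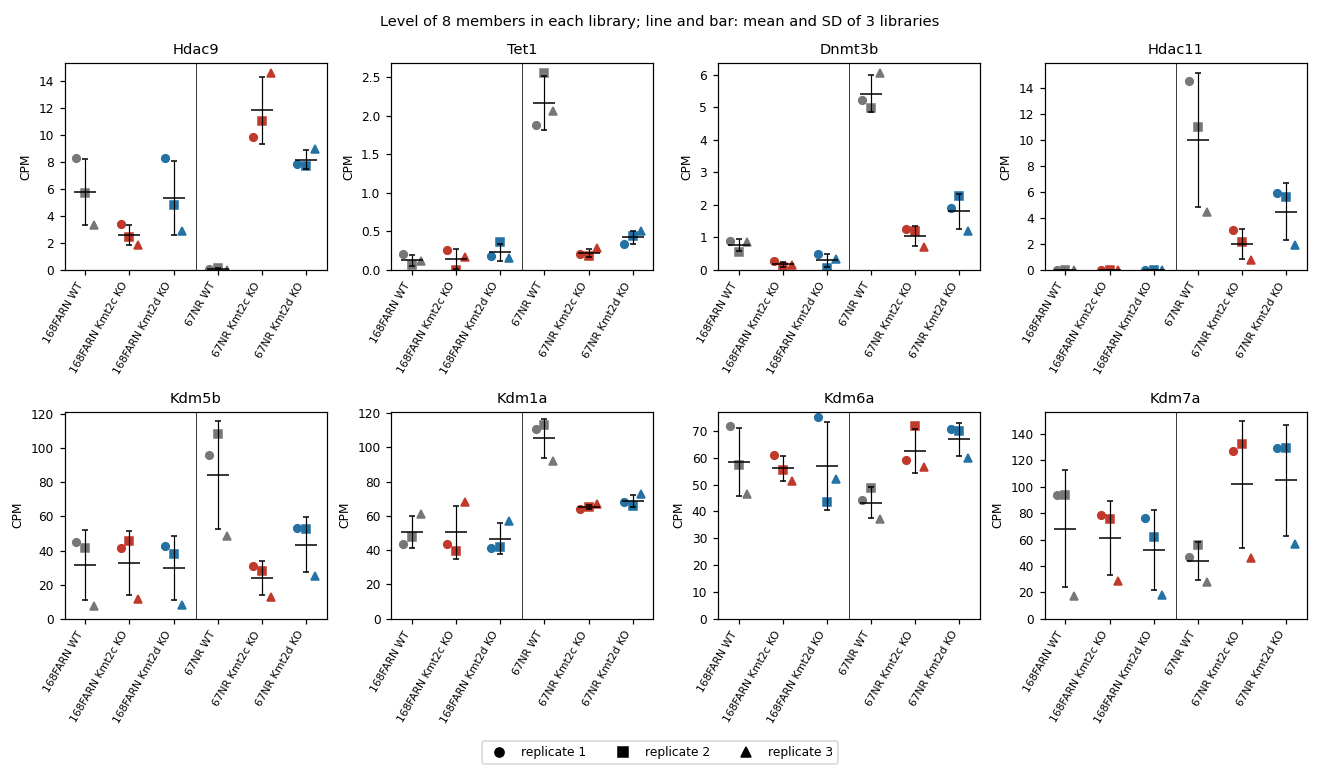
CPM (vertical axes, from 0) of 8 members in the 6 groups (horizontal axes). Each point is a library, its shape gives the replicate, and the line and bar are the mean and SD of 3 libraries. *Hdac9* is near 0 in 67NR WT and at 7.69 CPM or more in every 67NR knockout library, while *Tet1* and *Dnmt3b* have their highest level in 67NR WT.

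The promoters of these 5 members are shown because the members moved in both 67NR knockouts and include enzymes that act on CpG dinucleotides. The sequences are RefSeq's in GRCm38.p6, a later build than the mm9 of the counts, and run from 250 bases before to 50 bases after an annotated start. Each is written 5′ to 3′ on the strand of the gene, with every CpG (the letters CG, which read the same on both strands) in capitals.
*Tet1* promoter 1 (chr10:62887275-62887574, minus strand): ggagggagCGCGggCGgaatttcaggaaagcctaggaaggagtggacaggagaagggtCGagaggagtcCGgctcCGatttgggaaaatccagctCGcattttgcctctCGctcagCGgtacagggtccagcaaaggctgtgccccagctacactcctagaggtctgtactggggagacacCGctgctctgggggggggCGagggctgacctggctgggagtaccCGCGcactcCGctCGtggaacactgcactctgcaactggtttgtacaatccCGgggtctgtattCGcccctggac
*Dnmt3b* promoter 1 (chr2:153649199-153649498, plus strand): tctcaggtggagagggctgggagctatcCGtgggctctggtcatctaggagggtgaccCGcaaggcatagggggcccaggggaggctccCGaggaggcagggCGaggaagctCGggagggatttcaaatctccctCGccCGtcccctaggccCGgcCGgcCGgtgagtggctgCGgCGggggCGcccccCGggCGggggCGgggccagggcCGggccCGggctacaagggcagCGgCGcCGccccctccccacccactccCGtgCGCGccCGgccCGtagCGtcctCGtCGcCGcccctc
*Hdac9* promoter 1 (chr12:34917046-34917345, minus strand): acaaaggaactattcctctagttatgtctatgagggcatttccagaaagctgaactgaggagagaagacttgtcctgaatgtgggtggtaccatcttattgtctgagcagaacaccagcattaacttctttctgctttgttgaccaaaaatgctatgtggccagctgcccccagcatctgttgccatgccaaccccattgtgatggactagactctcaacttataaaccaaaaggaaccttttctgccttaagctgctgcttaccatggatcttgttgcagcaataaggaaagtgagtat
*Hdac9* promoter 2 (chr12:34528840-34529139, minus strand): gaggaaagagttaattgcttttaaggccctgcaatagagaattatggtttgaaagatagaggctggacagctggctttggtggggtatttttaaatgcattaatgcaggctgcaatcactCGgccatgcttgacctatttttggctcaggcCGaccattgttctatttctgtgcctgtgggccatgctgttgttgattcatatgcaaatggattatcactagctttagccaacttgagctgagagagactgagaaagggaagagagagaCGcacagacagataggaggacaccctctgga
*Kdm7a* promoter 1 (chr6:39206724-39207023, minus strand): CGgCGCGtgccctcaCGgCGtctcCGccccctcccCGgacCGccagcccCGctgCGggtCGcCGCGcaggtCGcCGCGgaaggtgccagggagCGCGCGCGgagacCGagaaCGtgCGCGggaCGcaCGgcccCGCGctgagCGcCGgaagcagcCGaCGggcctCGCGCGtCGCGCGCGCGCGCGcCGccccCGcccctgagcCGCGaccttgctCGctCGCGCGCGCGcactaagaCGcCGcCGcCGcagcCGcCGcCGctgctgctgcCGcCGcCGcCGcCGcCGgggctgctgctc
*Kdm6a* promoter 1 (chrX:18162325-18162624, plus strand): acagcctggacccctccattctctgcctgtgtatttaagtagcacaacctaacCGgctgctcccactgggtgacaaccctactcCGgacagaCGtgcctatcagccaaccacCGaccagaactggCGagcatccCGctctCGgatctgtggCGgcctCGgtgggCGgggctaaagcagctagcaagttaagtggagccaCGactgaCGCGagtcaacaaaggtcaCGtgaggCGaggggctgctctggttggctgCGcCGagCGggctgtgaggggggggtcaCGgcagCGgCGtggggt

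The *Hdac9* windows held 0 and 3 CpG dinucleotides, against 17 for *Tet1*, 30 for *Dnmt3b*, 21 for *Kdm6a* and 65 for *Kdm7a*. Over all 32851 promoters in the table the median was 7, with 94.6% holding at least 1, and 5.43% held none, as the first *Hdac9* window does. The 72 promoters found for 49 members had a median of 20 and a range of 0 to 65. These counts describe the reference sequence, and methylation was not measured. Reads counted per gene do not tell which of the annotated starts of *Hdac9* the cells used.

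In 67NR *Kmt2c* KO cells, 56 members could be tested, 10 rose and 10 fell. Of all 13665 genes tested, 17.9% were called higher and 17.4% lower, and of the members 17.9% and 17.9%, so the share of members called was near the background. The same 20 members were called with the replicate block, beside 21.3% and 19.9% of all genes. The median absolute log2 fold change was 0.36 over the members and 0.52 over all genes. In 67NR *Kmt2d* KO cells, 3 members rose and 2 fell, or 5.36% and 3.57% of the members, beside 13.9% and 11.6% of all genes. The median absolute log2 fold change was 0.27 over the members and 0.42 over all genes. With the replicate block, 4 rose and 5 fell in *Kmt2d* KO, beside 17.4% and 15.4% of all genes. The 4 added members were *Kdm5b*, *Hdac11*, *Prmt3* and *Sirt5*. Without WT replicate 3, 10 members were called in *Kmt2d* KO, and without *Kmt2d* KO replicate 3, 8 were. The share of all genes called was not computed for these fits.

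**Figure D3:**
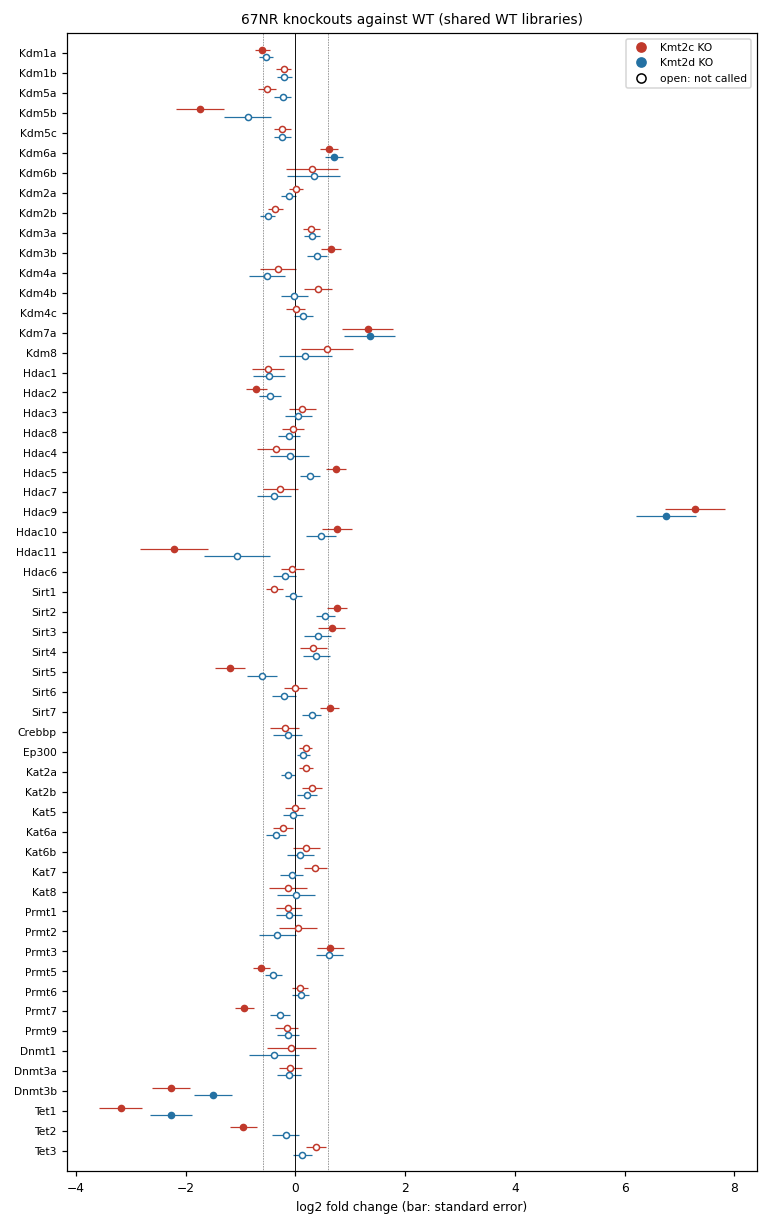
Log2 fold change of each member tested in 67NR (horizontal axis; bars are standard errors), in rows by role, for *Kmt2c* KO (red) and *Kmt2d* KO (blue) against the same WT libraries. Filled points passed the test, and dotted lines mark ±0.6. *Hdac9* lies far to the right and *Tet1* and *Dnmt3b* to the left in both knockouts, and most other members lie within 1 of 0.

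Of the 5 H3 lysine 4 demethylases, 2 fell and 0 rose in 67NR *Kmt2c* KO cells, beside 17.4% of all genes lower and 17.9% higher. *Kdm5b* (chromosome 1, 136456748 to 136529454) was at 96.3, 108 and 48.4 CPM in WT, 30.9, 28 and 12.5 CPM across *Kmt2c* KO libraries and 53, 52.6 and 24.8 CPM in *Kmt2d* KO. *Kdm5b* fell in *Kmt2c* KO (log2 fold change -1.74 ± 0.44 (SE), adjusted p = 0.0146). In *Kmt2d* KO the change was log2 fold change -0.87 ± 0.43 (SE), adjusted p = 0.19, and with the replicate block *Kdm5b* fell (log2 fold change -0.88 ± 0.12 (SE), adjusted p = 1.89e-04). *Kdm1a* (chromosome 4, 136106455 to 136158638), also known as LSD1, was at 111, 113 and 92 CPM in WT, and it stood at 64.2, 65.1 and 66.8 CPM across *Kmt2c* KO libraries and 68.3, 65.7 and 72.6 CPM in *Kmt2d* KO. All 6 knockout libraries were below the lowest WT library. Its change in *Kmt2c* KO lay at the fold threshold (log2 fold change -0.60 ± 0.13 (SE), adjusted p = 0.00673), and without WT replicate 1 or 2 it was -0.57 or -0.57 and no longer called. In *Kmt2d* KO the change of *Kdm1a* was log2 fold change -0.54 ± 0.13 (SE), adjusted p = 0.0178, which passed on p and not on fold. Its relative *Kdm1b* was not called in either knockout and lay between 23 and 32.6 CPM over the 9 libraries.

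Among the demethylases of other lysines, *Kdm6b*, the closest relative of *Kdm6a*, was not called in either 67NR knockout. It was at 77.8, 63.6 and 31.3 CPM in WT, 92.4, 74.4 and 33.6 CPM across *Kmt2c* KO libraries and 69.7, 100.3 and 36 CPM in *Kmt2d* KO. Replicate 3 was again lowest in each group. Of the 9 members among the demethylases of H3 lysines 9 and 36 and their relatives, *Kdm7a* and *Kdm3b* were called higher in *Kmt2c* KO. In *Kmt2d* KO *Kdm7a* was called higher, and 0 of the 9 were called lower in either. Of all genes, 17.9% were called higher and 17.4% lower in *Kmt2c* KO, and 13.9% and 11.6% in *Kmt2d* KO. Outside the rule, the related enzymes *Kdm4d* and *Phf8* were called lower and *Jmjd1c* and *Jmjd6* higher in *Kmt2c* KO. In *Kmt2d* KO, *Phf8* was called lower and *Jmjd1c* higher.

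The deacetylases and sirtuins moved in both directions. *Hdac5*, a class IIa enzyme like *Hdac9*, was at 34, 27.2 and 37.2 CPM in 67NR WT and 57.4, 50.5 and 46.4 CPM across *Kmt2c* KO libraries, and rose (log2 fold change 0.73 ± 0.18 (SE), adjusted p = 0.012). In *Kmt2d* KO it was at 30.9, 39.8 and 41.3 CPM, which overlapped with WT. *Hdac11*, the only class IV enzyme (chromosome 6, 91106659 to 91124686), fell in *Kmt2c* KO from 14.6, 11 and 4.43 CPM to 3.07, 2.17 and 0.798 CPM (log2 fold change -2.22 ± 0.62 (SE), adjusted p = 0.0226). At 5.89, 5.61 and 1.96 CPM in *Kmt2d* KO, it was called lower only with the block (log2 fold change -1.07 ± 0.19 (SE), adjusted p = 0.00115). The class I enzyme *Hdac2* fell in *Kmt2c* KO, and *Hdac1*, *Hdac3* and *Hdac8* were not called in either knockout. Beside the losses given for other members, calls in *Kmt2c* KO were lost without 1 library for *Hdac10* and *Sirt3* (5 of 6 fits each), *Prmt3* (4 of 6), *Kdm3b* (3 of 6), *Prmt5* (2 of 6, without WT replicate 3 or *Kmt2c* KO replicate 2) and *Hdac2* (without WT replicate 3).

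Of 7 sirtuins, 3 rose and 1 fell in 67NR *Kmt2c* KO, beside 17.9% of all genes higher and 17.4% lower. *Sirt2*, a mainly cytoplasmic deacetylase, was at 50.5, 41.8 and 54.9 CPM in WT and 92.1, 72.9 and 69.7 CPM across *Kmt2c* KO libraries (log2 fold change 0.76 ± 0.18 (SE), adjusted p = 0.00939). *Sirt5*, a mitochondrial enzyme that removes succinyl and malonyl groups, went the other way, from 11, 10.8 and 12.9 CPM to 5.25, 5.36 and 3.71 CPM (log2 fold change -1.19 ± 0.28 (SE), adjusted p = 0.00999). In both cases the groups did not overlap. *Sirt7*, found in the nucleolus, was at 15.9, 14 and 14.5 CPM in WT and 21.2, 20.3 and 23.2 CPM across *Kmt2c* KO libraries (log2 fold change 0.62 ± 0.17 (SE), adjusted p = 0.0216), and its call was lost without WT replicate 2 (0.57) or *Kmt2c* KO replicate 3 (0.57). In *Kmt2d* KO 0 of 7 sirtuins were called by edgeR without the block, beside 13.9% of all genes higher and 11.6% lower. There 1 sirtuin had an unadjusted p under 0.05, and *Sirt5* was called lower by DESeq2 and by edgeR with the block (log2 fold change -0.67 ± 0.23 (SE), adjusted p = 0.0403).

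None of the 9 acetyltransferases was called in either 67NR knockout, and 0 had an unadjusted p under 0.05 in edgeR's test. Of all genes, 17.9% were called higher and 17.4% lower in *Kmt2c* KO, and 13.9% and 11.6% in *Kmt2d* KO. *Ep300* was at 78.7, 79.9 and 69.8 CPM in WT, 85.4, 83.1 and 76.2 CPM across *Kmt2c* KO libraries and 78.9, 80.4 and 80.3 CPM in *Kmt2d* KO. Its paralogue *Crebbp* was at 44.7, 46.5 and 80 CPM in WT, 45.1, 41.8 and 54.1 CPM across *Kmt2c* KO libraries and 37.6, 47.3 and 62.3 CPM in *Kmt2d* KO libraries. The libraries of the groups overlapped for *Crebbp*, with replicate 3 highest in each.

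Among the 7 arginine methyltransferases tested in 67NR, *Prmt7* and *Prmt5* fell and *Prmt3* rose in *Kmt2c* KO, beside 17.4% of all genes lower and 17.9% higher. *Prmt7*, which makes monomethylarginine, was at 51.5, 49.8 and 51 CPM in WT, 25.6, 26 and 23.6 CPM across *Kmt2c* KO libraries and 47.4, 40.9 and 30.4 CPM in *Kmt2d* KO. It fell in *Kmt2c* KO (log2 fold change -0.93 ± 0.18 (SE), adjusted p = 0.00319), and in *Kmt2d* KO the change was -0.28 ± 0.17 with an adjusted p of 0.295. The *Kmt2d* KO libraries all lay between those of *Kmt2c* KO and WT.

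Of the other DNA enzymes, *Tet2* was at 17.2, 20.1 and 24.7 CPM in 67NR WT, 12, 11 and 7.37 CPM across *Kmt2c* KO libraries and 18.7, 19.6 and 13.5 CPM in *Kmt2d* KO, and it fell in *Kmt2c* KO (log2 fold change -0.95 ± 0.25 (SE), adjusted p = 0.0167). In *Kmt2d* KO replicates 1 and 2 lay within the WT range. *Tet3* was at 31.6, 32.2 and 39.8 CPM in WT, 47.2, 43.3 and 35.8 CPM across *Kmt2c* KO libraries and 32.2, 41.6 and 33.3 CPM in *Kmt2d* KO libraries and was not called. The maintenance enzyme *Dnmt1* was at 104, 90.4 and 213 CPM in WT, 105, 88 and 173 CPM across *Kmt2c* KO libraries and 64.3, 68.4 and 163 CPM in *Kmt2d* KO libraries, with replicate 3 far above the others in each group. *Dnmt3a* was at 24.2, 23.4 and 19.6 CPM in WT, 24.3, 20.4 and 14.7 CPM across *Kmt2c* KO libraries and 20.4, 21.8 and 16.4 CPM in *Kmt2d* KO libraries, and neither *Dnmt1* nor *Dnmt3a* was called. *Dnmt3l*, which binds *Dnmt3a* and *Dnmt3b* and has no catalytic activity, had 0 to 8 reads per library in 67NR and was not tested there.

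Markers of cell state moved with these results. In 67NR *Kmt2c* KO all 10 epithelial markers were called lower and in *Kmt2d* KO 8 of 10 (10 with the block), with summed levels of 704.2 to 1101.2 CPM and 1199.1 to 2223.7 CPM beside 3684.4 to 5638.6 CPM in WT. Of 10 mesenchymal markers, 6 were called higher in each knockout and 1 lower, *Fn1*. With the block 7 were higher and 2 lower in *Kmt2c* KO, and 7 higher and 1 lower in *Kmt2d* KO. Without it, 17.9% of all genes were called higher and 17.4% lower in *Kmt2c* KO, and 13.9% and 11.6% in *Kmt2d* KO. *Fn1*, the highest of the 10 in WT, had means of 4444.2 (WT), 1068.4 (*Kmt2c* KO) and 1427.3 CPM (*Kmt2d* KO). Mesenchymal sums overlapped, with 3569.0 to 6381.3 (WT), 4965.6 to 7037.1 (*Kmt2c* KO) and 4547.0 to 6692.7 CPM (*Kmt2d* KO). In each knockout they were below WT in replicates 1 and 2 and above it in replicate 3. Of the 12 proliferation markers, 0 were called in either knockout without the block. The block called 4 higher and 1 lower in *Kmt2c* KO, beside 21.3% and 19.9% of all genes. In *Kmt2d* KO it called 1 higher and 6 lower, beside 17.4% and 15.4% of all genes. Of the 5 immune markers, 1 was called without the block, *Cd79a*, higher in *Kmt2c* KO (mean 0.4567 CPM beside 0.04042 CPM in WT). The block called 1 higher in each knockout. No defining epithelial marker was at 0 in 67NR. The part of these markers in the changes of the members was not tested.

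*Kmt2c* KO and *Kmt2d* KO cells of 67NR were also compared with each other. Of 56 members, 0 were called by edgeR, 5 had an unadjusted p under 0.05 and DESeq2 called *Prmt7* and *Tet2*, both lower in *Kmt2c* KO. Of all genes 0.132% were called higher and 1.28% lower in *Kmt2c* KO. With the replicate block 4 members were lower in *Kmt2c* KO and 0 higher, beside 5.7% and 1.59% of all genes. They were *Kdm5b* (log2 fold change -0.88 ± 0.12 (SE), adjusted p = 0.00176), *Hdac11* (log2 fold change -1.19 ± 0.20 (SE), adjusted p = 0.00562), *Prmt7* (log2 fold change -0.64 ± 0.14 (SE), adjusted p = 0.0253) and *Tet2* (log2 fold change -0.77 ± 0.22 (SE), adjusted p = 0.0632).

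In 168FARN cells the calls depended on whether the replicate number was a block. Of 55 members tested, which leaves out *Prmt8*, *Tet1* and *Hdac11* for low counts, 0 were called by edgeR in *Kmt2c* KO, with 6 at an unadjusted p under 0.05, and 0 in *Kmt2d* KO, with 2. DESeq2 called *Dnmt3b* and *Prmt2* lower in *Kmt2c* KO and 0 members in *Kmt2d* KO. Of all 12253 genes, 0.196% were called higher and 0.163% lower in *Kmt2c* KO, and 0.147% and 0.139% in *Kmt2d* KO. The replicate block raised these to 3.66% and 3.57% of all genes in *Kmt2c* KO and to 2.73% and 3.17% in *Kmt2d* KO. With it, 5 members fell in *Kmt2c* KO, 2 fell in *Kmt2d* KO, and 0 rose in either.

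The 5 members lower in 168FARN *Kmt2c* KO with the block were *Hdac9*, *Tet2*, *Dnmt3b*, *Prmt2* and *Dnmt3l*. *Hdac9* was at 8.28, 5.71 and 3.36 CPM in WT and 3.38, 2.46 and 1.89 CPM across *Kmt2c* KO libraries (log2 fold change -1.12 ± 0.19 (SE), adjusted p = 0.00437). It was below WT in each of the 3 collections, although the highest knockout library reached the lowest WT library. *Tet2* was at 5.13, 3.67 and 1.89 CPM in WT and 2.25, 1.55 and 0.765 CPM across *Kmt2c* KO libraries (log2 fold change -1.23 ± 0.26 (SE), adjusted p = 0.0119). The DNA methyltransferase *Dnmt3b* was at 0.889, 0.55 and 0.875 CPM in WT and 0.265, 0.107 and 0.164 CPM across *Kmt2c* KO libraries (log2 fold change -2.14 ± 0.50 (SE), adjusted p = 0.0196), on 18 to 37 reads per WT library and 4 to 8 per knockout library. Its cofactor *Dnmt3l* was at 0.821, 0.611 and 0.402 CPM in WT and 0.0993, 0.24 and 0.137 CPM across *Kmt2c* KO libraries (log2 fold change -1.92 ± 0.65 (SE), adjusted p = 0.0842). For both *Dnmt3b* and *Dnmt3l*, no knockout library reached the WT range.

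*Prmt2* was lower with the block in both 168FARN knockouts (log2 fold change -0.77 ± 0.19 (SE), adjusted p = 0.0213, in *Kmt2c* KO and log2 fold change -0.68 ± 0.19 (SE), adjusted p = 0.0521, in *Kmt2d* KO). It was at 15.8, 19.9 and 13.4 CPM in WT, 8.14, 9.16 and 11.4 CPM across *Kmt2c* KO libraries and 10.8, 8.37 and 10.8 CPM in *Kmt2d* KO. *Kdm1b*, an H3 lysine 4 demethylase, was at 25.6, 28.2 and 22.6 CPM in WT, 14, 17.5 and 27.3 CPM across *Kmt2c* KO libraries and 14.9, 11.2 and 22.4 CPM in *Kmt2d* KO libraries and was lower in *Kmt2d* KO with the block (log2 fold change -0.69 ± 0.22 (SE), adjusted p = 0.0953). In replicate 3 neither knockout was below WT by more than the spread between WT libraries. With replicates 1 and 2 only, *Kdm1b* was lower in *Kmt2d* KO (log2 fold change -0.99, adjusted p = 7.41e-04 by edgeR) and *Kdm6b* higher (log2 fold change 0.75, adjusted p = 2.18e-04). Between the knockouts of 168FARN, edgeR called 0 members, 2 had an unadjusted p under 0.05 and DESeq2 called 0, beside 0.131% of all genes higher and 0.122% lower. With the block, *Tet2* (log2 fold change -1.34 ± 0.27 (SE), adjusted p = 0.0118) and *Hdac9* (log2 fold change -0.99 ± 0.20 (SE), adjusted p = 0.0128) were below their *Kmt2d* KO level in *Kmt2c* KO, beside 2.44% of all genes lower and 2.89% higher.

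The enzymes that the paper names as targets of its inhibitors, *Kdm6a*, *Kdm1a* and *Ep300*, passed neither with nor without the block in 168FARN. Whether the inhibitors act on other members was not examined here. *Kdm6a* was at 71.9, 57.2 and 46.4 CPM in WT, 61, 55.5 and 51.5 CPM across *Kmt2c* KO libraries and 75.3, 43.6 and 52 CPM in *Kmt2d* KO. *Kdm1a* was at 43.3, 47.7 and 61.1 CPM in WT, 43.9, 39.5 and 68 CPM across *Kmt2c* KO libraries and 41.2, 42.1 and 57 CPM in *Kmt2d* KO libraries. *Ep300* was at 108, 104 and 87.6 CPM in WT, 103, 93 and 103 CPM across *Kmt2c* KO libraries and 132, 97 and 101 CPM in *Kmt2d* KO libraries. The groups overlapped for each. *Crebbp* was at 28.1, 33.2 and 32.8 CPM in WT, 27.9, 25.4 and 44.1 CPM across *Kmt2c* KO libraries and 31.3, 22.8 and 36.4 CPM in *Kmt2d* KO libraries. *Tet3* was at 44.8, 47.7 and 40.1 CPM in WT, 49.9, 45.9 and 42.4 CPM across *Kmt2c* KO libraries and 66, 58.9 and 46.7 CPM in *Kmt2d* KO libraries. *Tet1* had at most 8 reads in any 168FARN library.

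Whether a knockout changed a member differently in the 2 lines was tested as an interaction over 57 members. The paper's share of mutant reads for *Kmt2c* was lower in 67NR than in 168FARN, and the part of this in the differences was not tested. For *Kmt2c* KO, 5 members passed, 3 with a higher change in 67NR and 2 with a lower one, beside 8.49% and 7.55% of all 13882 genes. *Hdac9* differed most (difference in log2 fold change 8.37 ± 0.81 (SE), adjusted p = 4.39e-06). *Tet1* (difference in log2 fold change -3.40 ± 1.06 (SE), adjusted p = 0.0496) and *Prmt7* (difference in log2 fold change -1.04 ± 0.32 (SE), adjusted p = 0.0438) changed lower in 67NR, and *Kdm3b* (difference in log2 fold change 0.73 ± 0.24 (SE), adjusted p = 0.062) and *Sirt7* (difference in log2 fold change 0.64 ± 0.23 (SE), adjusted p = 0.0932) changed higher. For *Kmt2d* KO, 1 member passed in each direction, *Hdac9* (difference in log2 fold change 6.79 ± 0.79 (SE), adjusted p = 4.05e-05) and *Tet1* (difference in log2 fold change -3.12 ± 1.06 (SE), adjusted p = 0.0953), beside 6.68% and 3.92% of all genes. The *Tet1* difference rests on few reads in 168FARN, and its *Kmt2d* KO call was lost in each of the 12 fits that left out 1 library, at adjusted p up to 0.264. For *Kmt2c* KO the call was lost in 4 of 12 such fits for *Prmt7* and *Kdm3b*, in 5 for *Tet1* and in 9 for *Sirt7*, while *Hdac9* kept its call in all 12 for both knockouts.

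With the replicate number nested in line as a block, 16 members differed for *Kmt2c* KO, 8 in each direction, beside 17.4% higher and 17.2% lower of all genes. For *Kmt2d* KO 11 differed, 6 higher and 5 lower in 67NR, beside 15.4% and 13%. Members added by the block in both were *Kdm5b* (difference in log2 fold change -2.04 ± 0.18 (SE), adjusted p = 1.56e-07, and difference in log2 fold change -0.91 ± 0.18 (SE), adjusted p = 0.00123), *Kdm7a*, *Sirt5*, *Hdac2* and *Prmt3*. *Kdm6a* was added for *Kmt2d* KO alone (difference in log2 fold change 0.68 ± 0.18 (SE), adjusted p = 0.00851), and the difference between the knockouts in this respect was not tested.

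The WT cells of the lines were compared on the same scale. Of 57 members, 12 were higher and 6 lower in 67NR, or 21.1% and 10.5% of the members, beside 22.3% and 16.9% of all genes. With the replicate number, common to both lines, as a block, 15 were higher and 8 lower, beside 25.6% and 19.8%, and the added members were *Hdac1*, *Kdm5b* and *Prmt2*, higher in 67NR, and *Sirt2* and *Sirt3*, lower. Pairing of the numbers was checked within each line and not across lines, so this block may not hold. Replicate 3 differed from the others unequally in 168FARN and 67NR for *Hdac1* (log2 fold change 1.85 and 0.62) and *Sirt2* (-1.25 and -0.08). The lines were counted in separate tables, and line and table cannot be told apart. *Hdac11* had 2175 reads over the 67NR WT libraries and 1 over those of 168FARN, a 1155-fold ratio of scaled counts that rests on that 1 read. Its 95% exact interval, 207.1 to 45652, covers counting error only, and the fitted log2 fold change ran from 9.21 to 11.74 when 1 library was left out. *Hdac11* had 0 reads in the 6 knockout libraries of 168FARN. *Hdac9* went the other way with 8.28, 5.71 and 3.36 CPM in 168FARN and 0.0945, 0.117 and 0 CPM in 67NR (log2 fold change -6.17 ± 0.64 (SE), adjusted p = 1.76e-06). In the knockouts of 67NR, the *Hdac9* level was in or above the range of 168FARN WT.

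*Kdm5a*, an H3 lysine 4 demethylase, was at 92.4, 83.2 and 67.7 CPM in 168FARN WT and 210.4, 244 and 272 CPM in 67NR WT (log2 fold change 1.58 ± 0.18 (SE), adjusted p = 5.75e-06). The DNA enzymes *Tet2* (log2 fold change 2.54 ± 0.40 (SE), adjusted p = 9.95e-05), *Dnmt3b* (log2 fold change 2.81 ± 0.48 (SE), adjusted p = 2.50e-04) and *Tet1* (log2 fold change 4.07 ± 0.77 (SE), adjusted p = 6.10e-04) were higher in 67NR. *Dnmt3l* was lower in 67NR, on 0 to 6 reads per library there (log2 fold change -3.36 ± 1.20 (SE), adjusted p = 0.0386), and its adjusted p was 0.124 without 67NR WT replicate 1 and 0.126 without replicate 2. The deacetylases *Hdac5* (log2 fold change -0.95 ± 0.23 (SE), adjusted p = 0.00465) and *Hdac10* (log2 fold change -0.92 ± 0.24 (SE), adjusted p = 0.00726) and the methyltransferase *Prmt3* (log2 fold change -0.82 ± 0.21 (SE), adjusted p = 0.00665) were also lower in 67NR, as was the acetyltransferase *Kat6b* (log2 fold change -0.61 ± 0.21 (SE), adjusted p = 0.0321). Of the targets that the paper names for its inhibitors, *Kdm1a* was higher in 67NR (log2 fold change 1.05 ± 0.21 (SE), adjusted p = 8.19e-04), and *Kdm6a* and *Ep300* were not called. Calls of *Kat6a* and *Kdm2b* did not survive 4 of the 6 fits without 1 library, those of *Crebbp*, *Kat6b* and *Prmt3* were lost without 67NR WT replicate 3 and that of *Sirt5* without 168FARN WT replicate 3.

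**Figure D4:**
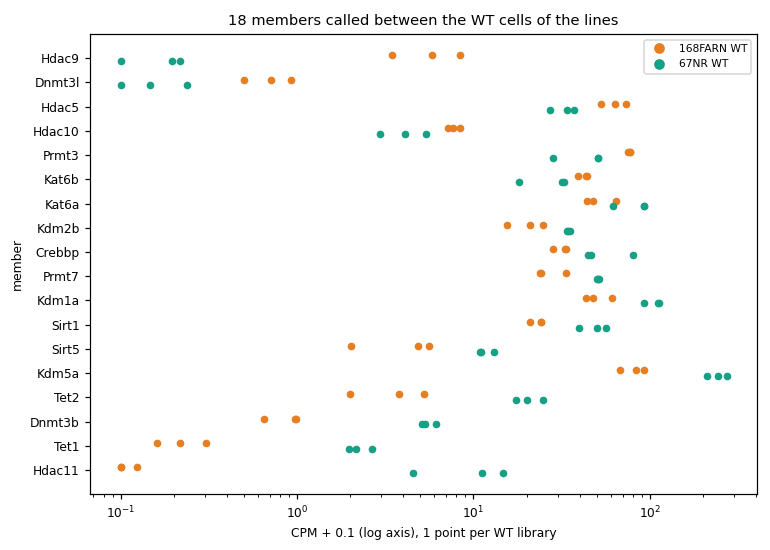
The 18 members called between WT cells of the lines, in rows ordered by fold change, with CPM + 0.1 on a log axis. Each point is a WT library of 168FARN (orange) or 67NR (green). Points of the lines are apart by more than their spread for *Hdac9*, *Hdac11*, *Tet1*, *Dnmt3b* and *Kdm5a*, and close for *Kat6a*.

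Replicate 3 was also set against replicates 1 and 2, a test added after the data were seen. Replicate 3 is 1 collection against 2 in each line, the 3 genotype libraries of a collection are counted as independent in this test, and its p-values are therefore too small for a statement about collections. In 168FARN, replicate 3 differed from replicates 1 and 2 in 25 of 55 members, 10 higher and 15 lower, beside 22.4% higher and 25.9% lower of all genes. In 67NR 4 of 56 were higher and 8 lower, beside 15.3% and 13.4% of all genes. *Dnmt1* was higher in both lines (168FARN log2 fold change 1.95 ± 0.10 (SE), adjusted p = 2.64e-09, and 67NR 1.08 ± 0.11 (SE), adjusted p = 8.05e-06). *Hdac1* was higher as well (168FARN 1.85 ± 0.09 (SE), adjusted p = 1.27e-09, and 67NR 0.62 ± 0.13 (SE), adjusted p = 0.00202). In 168FARN *Dnmt1* stood at 65.8, 74.5 and 209.9 CPM in WT, 55.5, 54.7 and 236 CPM across *Kmt2c* KO libraries and 51.3, 53.8 and 235 CPM in *Kmt2d* KO.

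The demethylases *Kdm6b*, *Kdm5b* and *Kdm7a* were lower in replicate 3 of both lines. In 168FARN, *Kdm6b* was at 98.8, 95.1 and 26.9 CPM in WT, 149, 141 and 21.9 CPM across *Kmt2c* KO libraries and 167, 151 and 20 CPM in *Kmt2d* KO (-2.49 ± 0.19 (SE), adjusted p = 1.45e-07). *Kdm5b* was at 44.9, 41.7 and 7.57 CPM in WT, 41.2, 45.6 and 11.5 CPM across *Kmt2c* KO libraries and 42.7, 38 and 8.14 CPM in *Kmt2d* KO libraries (-2.24 ± 0.13 (SE), adjusted p = 4.59e-09). *Kdm7a* was at 94.1, 94 and 17.1 CPM in WT, 78.7, 75.7 and 28.9 CPM across *Kmt2c* KO libraries and 76.6, 62.3 and 18.3 CPM in *Kmt2d* KO libraries (-1.91 ± 0.16 (SE), adjusted p = 2.39e-07). In each case replicate 3 lay outside the range of the other 2. In 67NR the changes were -1.25 ± 0.14 (SE), adjusted p = 2.17e-05, for *Kdm6b*, -1.15 ± 0.10 (SE), adjusted p = 4.10e-06, for *Kdm5b* and -1.20 ± 0.12 (SE), adjusted p = 1.23e-05, for *Kdm7a*. The proliferation markers, whose sums are given above, were also apart in replicate 3 of every group, and their part in these changes was not tested.

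**Figure D5:**
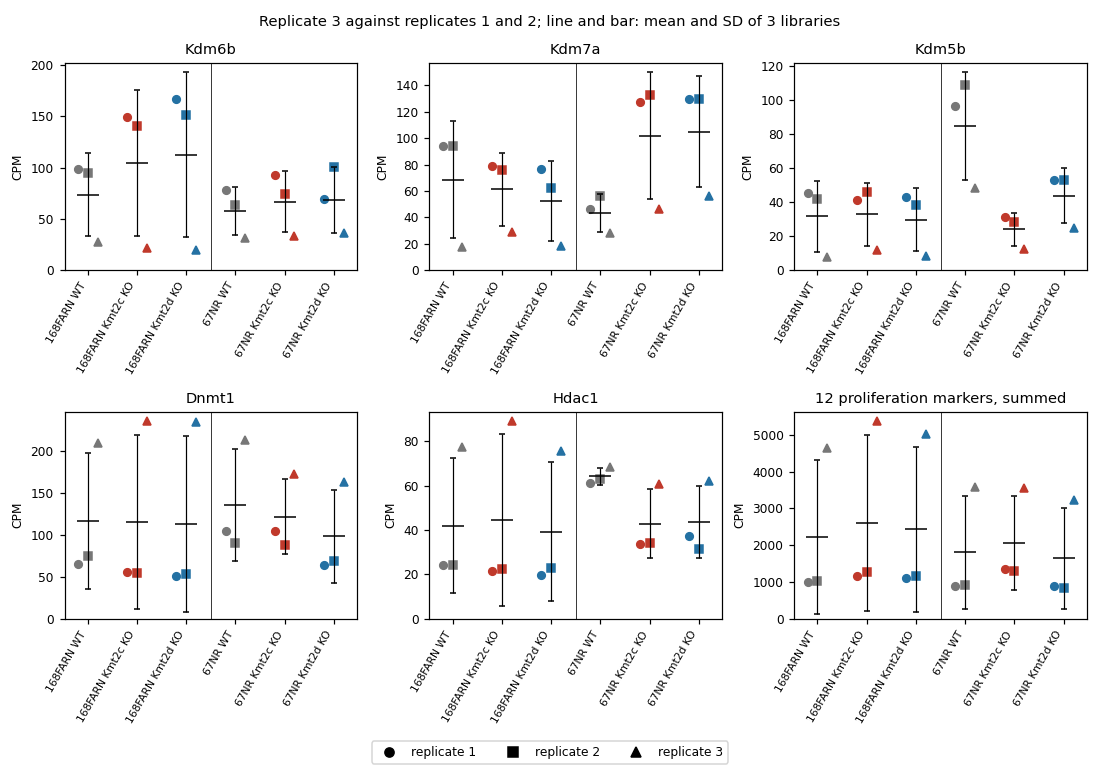
CPM (vertical axes, from 0) of *Kdm6b*, *Kdm7a*, *Kdm5b*, *Dnmt1* and *Hdac1* and the sum of 12 proliferation markers in the 6 groups. Points are libraries, triangles are replicate 3, and lines and bars are means and SDs of 3 libraries. Triangles are lowest for the 3 demethylases and highest for *Dnmt1*, *Hdac1* and the markers in every group.

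Partners and related enzymes outside the rule were counted from lists, and these counts stand beside 17.9% of all genes higher and 17.4% lower in 67NR *Kmt2c* KO and 13.9% and 11.6% in 67NR *Kmt2d* KO. Of 24 subunits of the CoREST, NuRD, Sin3 and NCoR complexes, which hold deacetylases, 0 rose and 5 fell in 67NR *Kmt2c* KO, and 0 rose and 4 fell in 67NR *Kmt2d* KO. *Mta3*, a NuRD subunit, fell in *Kmt2c* KO (log2 fold change -1.01 ± 0.13 (SE), adjusted p = 3.49e-04) and in *Kmt2d* KO (log2 fold change -1.02 ± 0.13 (SE), adjusted p = 5.85e-04). *Rcor2*, *Chd3* and *Gps2* also fell in both, and *Rbbp7* fell in *Kmt2c* KO. Of 20 partners of the acetyltransferases, 1 rose and 1 fell in *Kmt2c* KO, and 0 rose and 1 fell in *Kmt2d* KO. Of 10 related enzymes, 2 rose and 2 fell in *Kmt2c* KO and 1 rose and 1 fell in *Kmt2d* KO. Among them the demethylase *Phf8* was lower in both (log2 fold change -1.33 ± 0.24 (SE), adjusted p = 0.00233, and log2 fold change -0.96 ± 0.23 (SE), adjusted p = 0.0176). *Kdm4d* fell in *Kmt2c* KO (log2 fold change -2.18 ± 0.84 (SE), adjusted p = 0.0736). Between the WT cells it was higher in 67NR than in 168FARN (log2 fold change 5.40 ± 1.25 (SE), adjusted p = 0.00372). Of 4 other partners, 0 rose and 2 fell in *Kmt2c* KO, *Uhrf2* and *Wdr77*, and 0 were called in *Kmt2d* KO. Of 11 enzymes that make or use cofactors, *Idh2* rose in *Kmt2c* KO and 0 were called in *Kmt2d* KO. In *Kmt2c* KO the block called 2 higher and 1 lower, beside 21.3% and 19.9% of all genes. In 168FARN, genes of these lists passed edgeR's test only with the block. Higher in *Kmt2c* KO were 1 related enzyme, 1 subunit of the deacetylase complexes and 1 acetyltransferase partner, beside 3.66% of all genes. Higher in *Kmt2d* KO were 2 acetyltransferase partners, beside 2.73% of all genes.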

How the data were processed

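RNA-seq of 18 libraries was analysed, 9 of each line. The authors aligned reads to mm9 with STAR in the VIPER pipeline and deposited raw counts per gene, one table a line. How counting treated strand is not given in the sources used here, so antisense partners cannot be told apart. Groups follow the labels.

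Counts were tested with edgeR 4.0.16 (TMM scaling, filterByExpr, robust quasi-likelihood F test, Benjamini-Hochberg adjustment) in R 4.3.3, in 1 fit of 9 libraries a line, and in 1 fit of all 18 for differences between lines. The call thresholds were 0.1 for adjusted p and 0.6 for the size of the log2 fold change. SE was the absolute log2 fold change over the square root of F. DESeq2 1.42.0, other size factors, no filter on low counts, only the groups compared, replicates 1 and 2 only, each library left out and a replicate block were alternatives. Leaving out *Rn45s* and setting replicate 3 against replicates 1 and 2 were chosen after seeing the data. Steps were tested on simulated counts, drawn independently for each library with no shift of replicate 3. That test therefore does not show how calls behave under such a shift.

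Correlations of deviations from group means between same-numbered libraries were 0.65 to 0.90 in 168FARN and 0.35 to 0.72 in 67NR, and the numbers were treated as pairing the samples. Replicates 1 and 2 of different groups correlated as highly across numbers (0.623 to 0.728 and 0.284 to 0.523), and replicate 3 correlated negatively with both, so the pairing seen is mainly of replicate 3 against the others. Block values stand beside counts of members and named calls that the block changes, such as the 5 members called in 168FARN *Kmt2c* KO.

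The members, the lists of partners and markers and the tests were chosen with earlier results of these data known. Named members were the targets that the paper names for its inhibitors (*Kdm6a*, *Kdm1a*, *Ep300*) and their closest relatives, the Dnmt and Tet enzymes and, in each comparison, up to 5 called higher and 5 called lower with the smallest p. Others were named after their values were seen.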

Additional observations from a re-analysis of the deposited data

Results flagged for a closer look

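In 7 cases the effect of a knockout on a member differed between 67NR and 168FARN by edgeR's test of the interaction, given as the log2 effect in 67NR minus that in 168FARN. For *Kmt2c* KO these were *Hdac9* (8.37 ± 0.81 (SE), adjusted p = 4.39e-06), *Tet1* (-3.40 ± 1.06, adjusted p = 0.0496), *Prmt7* (-1.04 ± 0.32, adjusted p = 0.0438), *Kdm3b* (0.73 ± 0.24, adjusted p = 0.062) and *Sirt7* (0.64 ± 0.23, adjusted p = 0.0932). For *Kmt2d* KO they were *Hdac9* (6.79 ± 0.79, adjusted p = 4.05e-05) and *Tet1* (-3.12 ± 1.06, adjusted p = 0.0953). The *Hdac9* values rest on 8, 8 and 0 reads in 67NR WT, and the *Tet1* values on 0 to 8 reads per library in 168FARN.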

How the results depend on the processing

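Of 92 results for single members, 1331 values were computed under the alternatives and 1330 kept the direction. The exception was *Hdac1*, whose difference in *Kmt2c* KO effect between lines ran from -1.32 to 0.42 over the fits that left out 1 library, with 0.42 (adjusted p = 0.79) without 168FARN *Kmt2c* KO replicate 3, and the cause was not tested. Counts of called members in 67NR *Kmt2c* KO (20) ranged from 16 to 20 and between the WT lines (18) from 17 to 26 under the alternatives other than leaving out a library.

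The replicate block gave 5 members in 168FARN *Kmt2c* KO, 2 in 168FARN *Kmt2d* KO, 9 in 67NR *Kmt2d* KO, 2 and 4 between the knockouts of 168FARN and of 67NR, and 16 and 11 for the *Kmt2c* KO and *Kmt2d* KO effects between lines. With replicates 1 and 2 only, the same counts were 8, 3, 12, 4, 7, 19 and 12. DESeq2 called 2 in 168FARN *Kmt2c* KO, 2 between the 67NR knockouts and 8 for the *Kmt2c* KO effect. Without a filter on low counts, and likewise at an adjusted p under 0.05 with no fold threshold, the effects gave 3 and 1. The share of all genes called was computed only with and without the block, not under the other alternatives. Shifts in these counts are therefore not results about the members alone, and their cause was not tested.

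Leaving out 1 library at a time gave 13 to 18 members in 67NR *Kmt2c* KO, 4 to 10 in 67NR *Kmt2d* KO, 0 to 1 between the 67NR knockouts, 2 to 6 and 1 to 2 for the effects, 16 to 21 between the WT lines and 0 to 0 in the 168FARN comparisons. For these fits, too, the share of all genes called was not computed. Depth limits *Tet1*, *Dnmt3b*, *Dnmt3l* and *Hdac11* in 168FARN and *Hdac9* in 67NR WT, each with under 40 reads per library there.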
